A study of Mus musculus with 36 samples.

Results

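Synaptic scaffolds and adhesion molecules, the proteins that hold the 2 sides of a synapse together and anchor its receptors, were followed by name in stimulated mouse cortical neurons. The 36 genes were taken as a fixed list of symbols: the MAGUK scaffolds Dlg1 to Dlg4, the SAPAP adaptors Dlgap1 to Dlgap4, Shank1 to Shank3, gephyrin (Gphn), the neuroligins Nlgn1 to Nlgn3, Lrrtm1 to Lrrtm4, Lrfn1 to Lrfn5, Slitrk1 to Slitrk5, Il1rapl1, the neurexins Nrxn2 and Nrxn3 with their relative Cntnap2, and the receptor phosphatases Ptprd, Ptprs and Ptprf. All 36 were found among the 26709 genes of the RNA table, and all 36 were among the 16209 genes tested, so the filter on low values removed none. Primary cortical neurons of CD-1 mouse embryos at day 15 were grown for 7 days in vitro, and all cultures, the controls included, were silenced for 2 h with the NMDA receptor blocker AP-5 (100 µM) and the sodium channel blocker tetrodotoxin (TTX, 1 µM). They then received BDNF at 10 ng/ml, KCl at 55 mM or, as controls, stayed silenced, and were collected after 1, 6 or 10 h. RNA-seq and ATAC-seq, an assay of open chromatin, were each made on 18 libraries, 2 for each of the 9 combinations of treatment and time. The study's methods call the pairs biological replicates, and the labels do not say from which cultures or litters they came, so p-values measure the spread between these libraries.

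Scaffold proteins of excitatory synapses form stacked layers beneath the postsynaptic membrane, with MAGUKs bound to receptors, SAPAPs in the middle and SHANKs linking to the actin cytoskeleton, while gephyrin anchors receptors for GABA and glycine at inhibitory synapses. Above them, postsynaptic adhesion proteins reach across the cleft to presynaptic partners. Neuroligins and LRRTMs bind neurexins, and SLITRKs, IL1RAPL1 and some LRFNs bind receptor phosphatases of the LAR family. BDNF, through its receptor TrkB, and depolarization by KCl, through calcium entry, both switch on activity-regulated transcription in cortical neurons.

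RNA libraries held 8508452 to 36699187 assigned reads (median 11558674) and ATAC libraries 1241829 to 6236439 reads in peaks (median 3553183). The lowest ATAC depth was that of 1 of the 2 KCl 6 h libraries, against 4208446 reads in the other. RNA values are reads divided by a size factor for each library, called normalised counts here. Fos, an early response gene, lay at 25.1 to 43.3 normalised counts in the 6 controls, at 105 to 1738 with BDNF and at 948 to 5742 with KCl, in the direction of the labels. KCl 6 h library B stood apart in the RNA data, with 3.26% of its reads in Gm42418, against a top gene of at most 1.01% in the other libraries. Of the 27 members called at 6 h of KCl, 21 were still called when that library was left out and 6 were not (Cntnap2, Dlg2, Dlg3, Dlgap1, Lrrtm3 and Shank1), and the values of Dlgap3 and Shank3 moved by over 1.5 times. Summed markers of neurons were at 45127 to 50141 normalised counts in controls, 44151 to 49135 with BDNF and 39659 to 50967 with KCl. The 4 GABAergic markers summed to 8995 to 10720.4 in controls, 11213 to 13243 with BDNF and 10292 to 13696 with KCl, while the 5 astrocyte markers summed to 8839 to 11818, 8668 to 11264 and 7027 to 12637. Of the GABAergic markers, 3 were called higher at each time of BDNF. With KCl 2, 3 and 3 of them were higher at 1, 6 and 10 h, and Dlx1 was lower at 6 and 10 h (-0.43 and -0.27). Of the 4 glutamatergic markers, 2 were higher and 2 lower at 1 h of BDNF, with 3 and 2 higher and 0 lower at 6 and 10 h. With KCl 1 was higher and 1 lower at 1 h, and 4 and 2 were higher and 0 lower at 6 and 10 h. Of 4 astrocyte markers that were tested, 0 were called at 1 h, 4 were lower at 6 h of BDNF and at 6 and 10 h of KCl, and 2 at 10 h of BDNF. Of the 4 markers of dividing cells, 0 were called at 1 h, 3 were lower at both later times of BDNF, and with KCl 2 were lower after 6 h and 4 after 10 h, with sums of 3945 to 6629 in controls, 3466 to 5439 with BDNF and 2744 to 6249.8 with KCl. Markers of oligodendrocyte lineage (5757 to 6204 in controls), radial glia (5603 to 6786), vascular cells (2312 to 2858) and microglia (101 to 156) were also detected, and no marker was at 0 throughout. Their part in the results below was not tested. In such bulk samples, fewer cells of a type and less RNA per cell cannot be told apart.

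In the controls the genes spanned a wide range of levels. Per kilobase of exon, Nlgn2, the neuroligin of inhibitory synapses, stood highest at 870.1 normalised counts, followed by the phosphatase Ptprs at 820.0, Lrfn4 at 596, Nrxn2 at 456, the adaptor Dlgap4 at 444 and the phosphatase Ptprf at 362. The lowest were Lrrtm4 at 26.0, Dlgap2 at 22.3 and Il1rapl1 at 16.8 per kilobase. Not scaled to length, the control means ran from 137 ± 19.0 (SD, n = 6) for Dlgap2 to 12292 ± 239 for Ptprs. No member was called between control times: 0 of 36 were called at 6 h or at 10 h against 1 h by limma, with 0 at an unadjusted p below 0.05, and of all genes tested 0.0% and 0.0% were called. With 2 libraries for each time this test can miss differences, so it does not show that the times are equal. The members' log2 differences ran from -0.18 to 0.27 at 6 h and from -0.22 to 0.30 at 10 h. All comparisons with controls below use the same 6 controls, and so share them. Exons of 14 members overlap another annotated gene, and it is not given whether reads were counted by strand. This bears most on Lrrtm2, which lies inside Ctnna1 on the other strand and shares exonic bases with it. Genes on the other strand over exons of Nlgn1, Nrxn2 and Shank1 had means of 53.9, 40.0 and 31.7 normalised counts.

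Of the 36 genes, KCl raised 18 at each time, and BDNF lowered more than it raised. Calls are at an adjusted p below 0.1 in limma, with Benjamini-Hochberg adjustment over all genes tested. With BDNF, 5 were higher and 11 lower at 1 h, where 21.3% of all genes were called higher and 19.0% lower. At 6 h, 6 were higher and 9 lower, against 22.1% and 21.1% of all genes, and at 10 h again 6 were higher and 9 lower, against 21.1% and 19.5%. As shares of the 36, these are 13.9%, 16.7% and 16.7% higher and 30.6%, 25.0% and 25.0% lower. With KCl, 18 were higher and 8 lower at 1 h (26.5% and 28.2% of all genes), 18 and 9 at 6 h (33.4% and 33.1%) and 18 and 3 at 10 h (29.0% and 28.2%). Here 50.0% of the members were higher at each time, and 22.2%, 25.0% and 8.33% were lower. The members' median log2 fold change was -0.03, -0.00 and 0.02 at 1, 6 and 10 h of BDNF and 0.18, 0.18 and 0.24 of KCl, beside a median of 0.00 over all genes. Without KCl 6 h library B, 21 members were higher and 3 lower at that time. Most changes were small: a call of at least 2-fold was made for 1 member with BDNF, at 1 h, and for 2, 3 and 2 members with KCl at 1, 6 and 10 h.

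**Figure D1:**
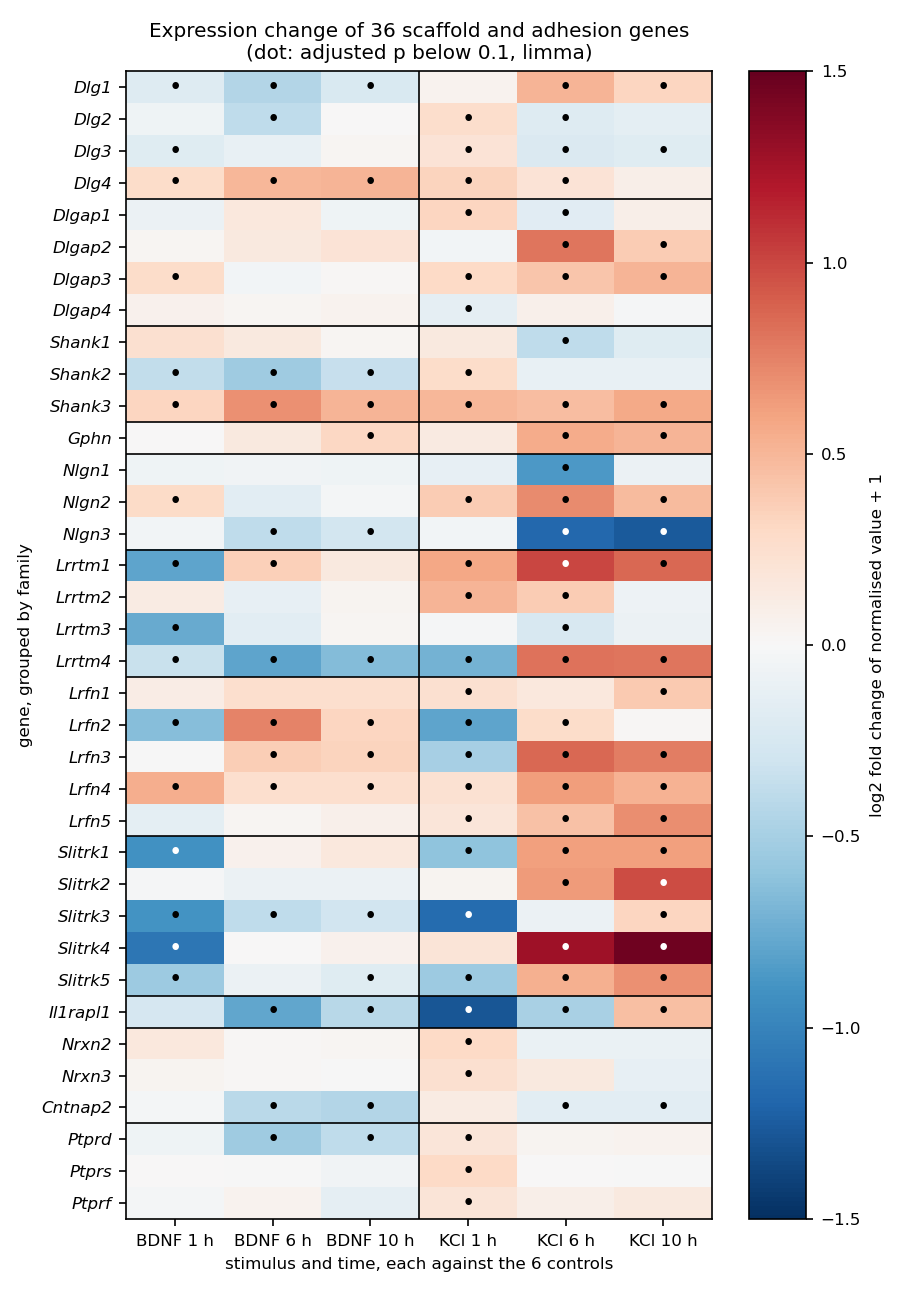
Log2 fold change of normalised counts against the 6 controls for the 36 genes (rows, by family) at 1, 6 and 10 h of BDNF and KCl (columns); a dot marks an adjusted p below 0.1 in limma. Slitrk1, Slitrk3 and Slitrk5 are low at 1 h of KCl, all 5 Slitrk rows are high at 10 h of KCl, and Nlgn3 is low at 6 and 10 h of KCl (-1.17 and -1.26).

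The 3 largest falls at 1 h of BDNF among the 36 genes were of Slitrk4, Slitrk1 and Slitrk3. SLITRKs are leucine-rich repeat proteins of the postsynaptic membrane that induce presynaptic differentiation, and with BDNF at 1 h, 4 of the 5 were lower and 0 higher. Slitrk4 lay at 482, 557 and 653 normalised counts (lowest, median and highest control) and at 266 and 260.3 in the 2 BDNF 1 h libraries, a log2 fold change of -1.08 ± 0.11 SE, adjusted p = 1.3e-07. Slitrk1, linked to obsessive and tic disorders, had controls at 801, 837 and 925 and BDNF libraries at 447 and 456 (-0.91 ± 0.08, adjusted p = 5.1e-09). Both stood below every control, with no overlap. Slitrk3, a SLITRK of inhibitory synapses, had controls at 721, 749 and 809, with 418 and 391 after 1 h of BDNF (-0.89 ± 0.09, adjusted p = 7.6e-08) and 370.4 and 306 after 1 h of KCl (-1.16 ± 0.09, adjusted p = 7.1e-10). Slitrk5, which also interacts with TrkB, fell from controls at 973, 988 and 1041 to 657 and 708 with BDNF and to 682 and 688 with KCl (-0.55 ± 0.08, adjusted p = 8.0e-06 for BDNF and -0.54 ± 0.08, adjusted p = 4.9e-06 for KCl). Slitrk1 was also lower at 1 h of KCl (-0.60 ± 0.08, adjusted p = 1.3e-06), whereas Slitrk4 was not called there (0.19 ± 0.11, adjusted p = 0.16). Slitrk2 was not called at 1 h of either stimulus (log2 fold changes of -0.02 and 0.04).

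Later, KCl raised the family. At 10 h of KCl all 5 were higher, and at 6 h 4 of 5. Slitrk4 reached 1423 and 1284 at 6 h and 1574 and 1506 at 10 h of KCl, above every control (1.27 ± 0.11, adjusted p = 4.5e-09 and 1.46 ± 0.11, adjusted p = 1.3e-09), while BDNF libraries of those times at 596 and 527 and at 566 and 608 lay inside the range of the controls. The direct difference of BDNF from KCl for Slitrk4 was -1.28 ± 0.13, adjusted p = 2.1e-07 at 1 h, -1.27 at 6 h and -1.39 at 10 h. Slitrk2 had controls at 509.7, 568 and 641 and reached 883 and 882 at 6 h and 1237 and 1015 at 10 h of KCl (0.98 ± 0.09, adjusted p = 7.2e-09 at 10 h). No KCl library of those times overlapped the controls. With BDNF at 10 h the libraries were at 565 and 506, 1 of them inside the control range, and Slitrk2 was not called (-0.09). Slitrk1 and Slitrk5 also rose at 6 and 10 h of KCl, by 0.61 and 0.62 and by 0.53 and 0.69 on the log2 scale. Slitrk3 was called in opposite directions at 10 h, lower with BDNF at 676 and 565 (-0.28 ± 0.09, adjusted p = 0.020) and higher with KCl at 955 and 931 (0.33 ± 0.09, adjusted p = 0.0049). Its BDNF call was lost when BDNF 10 h library B was left out (-0.15, adjusted p = 0.394), and the direct difference at 10 h was -0.61 ± 0.11, adjusted p = 0.00016.

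**Figure D2:**
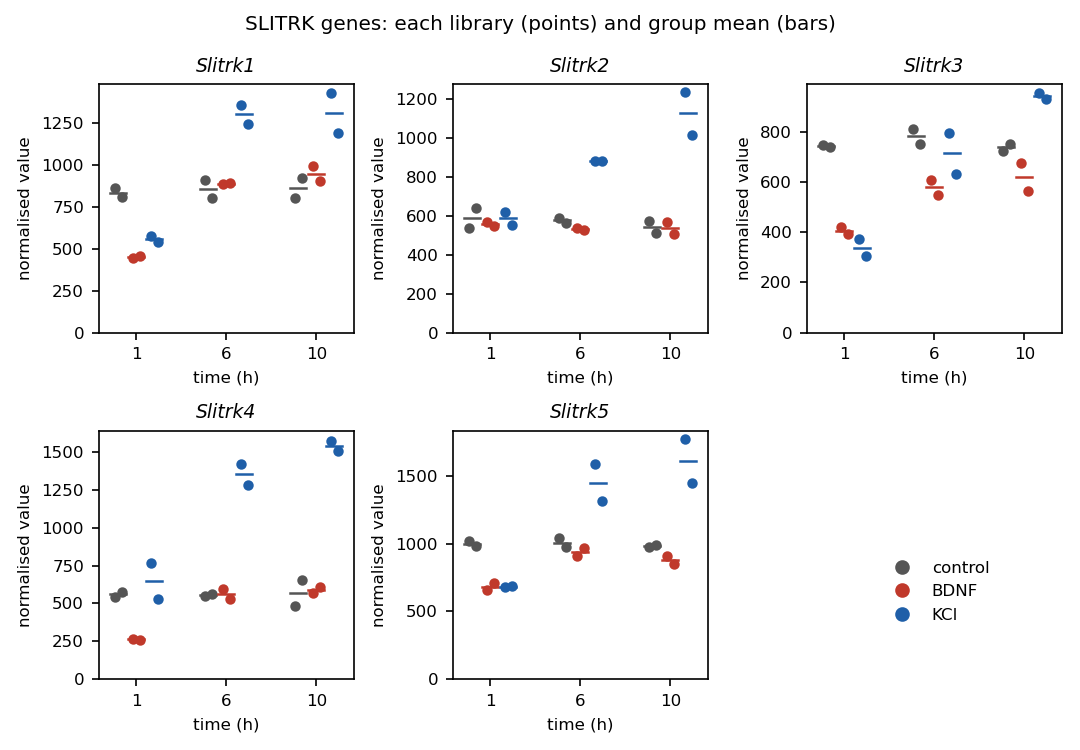
Normalised counts of Slitrk1 to Slitrk5 in every RNA library, by treatment and time; each point is 1 library. After 1 h of BDNF the Slitrk1, Slitrk3, Slitrk4 and Slitrk5 libraries lie below all controls, and after 10 h of KCl all 5 genes lie above them.

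LRRTMs are postsynaptic leucine-rich repeat proteins that bind neurexins and help hold AMPA receptors. Lrrtm1 had controls at 744, 785 and 845 and was called in opposite directions at 1 h, at 452 and 459 with BDNF (-0.79 ± 0.08, adjusted p = 9.3e-08) and 1272 and 1097 with KCl (0.58 ± 0.08, adjusted p = 3.7e-06). The BDNF libraries lay below and the KCl libraries above every control, and the direct difference was -1.37 ± 0.10, adjusted p = 4.6e-10. At 6 h both stimuli stood above the controls, with 991 and 1038 for BDNF (0.36 ± 0.08, adjusted p = 0.0013) and 1703 and 1476 for KCl (1.01 ± 0.08, adjusted p = 8.4e-10), and KCl stayed high at 10 h (1598 and 1279, 0.86). Lrrtm4, which also binds heparan sulphate proteoglycans, crossed over later. From controls at 135, 160.2 and 185, it was at 84.7 and 97.9 after 6 h and 98.3 and 104 after 10 h of BDNF (-0.80 ± 0.13, adjusted p = 4.5e-05 and -0.65 ± 0.13, adjusted p = 0.00054), and at 259.6 and 301 and 279.9 and 276 with KCl (0.81 ± 0.13, adjusted p = 1.2e-05 and 0.80 ± 0.13, adjusted p = 2.3e-05). The BDNF libraries lay below and the KCl libraries above every control at both times, with direct differences of -1.61 ± 0.16, adjusted p = 2.9e-08 and -1.45 ± 0.16, adjusted p = 2.5e-07. At 1 h Lrrtm4 was lower with KCl, at 96.3 and 97.3 (-0.71 ± 0.13, adjusted p = 9.0e-05), and with BDNF at 119 and 133 (-0.34 ± 0.13, adjusted p = 0.047), a call lost when BDNF 1 h library A was left out (-0.26, adjusted p = 0.353).

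Lrrtm3 was low after 1 h of BDNF, at 155 and 152 against controls at 246, 259 and 271 (-0.75 ± 0.09, adjusted p = 3.9e-07). It was not called at 6 or 10 h of BDNF (-0.16 and 0.03) or at 1 h of KCl (-0.02). At 6 h of KCl it was called lower (-0.24 ± 0.09, adjusted p = 0.017), and this was lost when KCl 6 h library B was left out (-0.20, adjusted p = 0.133). The direct difference of the stimuli at 1 h was -0.73 ± 0.10, adjusted p = 7.7e-06. Lrrtm2, with the overlap named above, was higher with KCl at 1 and 6 h (0.51 and 0.38, from controls at 948, 989 and 1156) and was not called with BDNF.

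LRFNs, also called SALMs, are adhesion proteins of which several bind the MAGUK PSD-95. Lrfn2 had controls at 405, 488 and 561 and fell at 1 h of both stimuli, to 315 and 299.9 with BDNF (-0.63 ± 0.10, adjusted p = 3.1e-05) and 282 and 271 with KCl (-0.79 ± 0.10, adjusted p = 9.6e-07), below every control. At 6 h of BDNF it stood above every control at 767 and 837 (0.74 ± 0.10, adjusted p = 4.4e-06), a change of 1.38 on the log2 scale from 1 h. With KCl at 6 h the libraries were at 625 and 536 (0.28 ± 0.10, adjusted p = 0.020), a call lost without library A (0.17, adjusted p = 0.268). Lrfn3 fell at 1 h of KCl (-0.50) from controls at 569, 620.5 and 693, then rose with KCl at 6 and 10 h (0.87 and 0.77) and less with BDNF (0.37 and 0.33), with direct differences of -0.50 ± 0.10, adjusted p = 0.00027 at 6 h and -0.44 ± 0.10, adjusted p = 0.0015 at 10 h. Lrfn4 was called higher in all 6 comparisons, most at 6 h of KCl (3569 and 2691 against controls at 1845, 1988 and 2163, 0.63 ± 0.09, adjusted p = 7.4e-06). Of these calls, those at 6 and 10 h of BDNF and at 1 h of KCl were lost when a library of that group was left out. Lrfn5, from controls at 997, 1074 and 1142, rose with KCl at 1, 6 and 10 h (0.18, 0.44 and 0.70) and was not called with BDNF. The 1 h call was lost when KCl 1 h library A was left out (0.11, adjusted p = 0.433), and the 6 h value was 0.29 without KCl 6 h library A. Lrfn1 had controls at 732, 783 and 975 and was called higher at 1 and 10 h of KCl (0.24 and 0.39), both lost without KCl library A of that time and the former in other fits too.

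Of the neuroligins, postsynaptic partners of neurexins, Nlgn3 had the largest lasting fall with KCl. It was at 460.1 and 568 after 6 h and 574 and 403 after 10 h of KCl, with controls at 938, 1181 and 1327 (-1.17 ± 0.12, adjusted p = 1.6e-07 and -1.26 ± 0.12, adjusted p = 1.3e-07). These 4 libraries lay below every control, and at 1 h of KCl the libraries were inside the control range (-0.04). BDNF lowered it less, to 868 and 898 at 6 h (-0.39 ± 0.12, adjusted p = 0.019), a call lost without library A (-0.36, adjusted p = 0.139), and the direct difference at 6 h was 0.79 ± 0.15, adjusted p = 0.00024. Nlgn1, the neuroligin of excitatory synapses, was low at 6 h of KCl only among the 6 comparisons, at 588 and 514 against controls at 913, 1012 and 1072 (-0.86 ± 0.08, adjusted p = 3.5e-09). At 10 h of KCl it was at 936 and 945, inside the control range, and the change from 6 to 10 h was 0.77 on the log2 scale, also called. Nlgn2 moved the other way, to 9427 and 7170.4 at 6 h of KCl from controls at 4582, 5002 and 5643 (0.71 ± 0.09, adjusted p = 1.5e-06). It was also higher at 1 and 10 h of KCl (0.39 and 0.47) and, by 0.28, at 1 h of BDNF, the last call lost without BDNF 1 h library B.

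Il1rapl1, an X-linked gene of intellectual disability whose protein binds Ptprd, was among the lowest in level, with controls at 131, 151 and 195 normalised counts. It had the largest fall of the 36 at 1 h of KCl, to 82.7 and 48.1 (-1.28 ± 0.18, adjusted p = 5.5e-06), and was at 119 and 143 with BDNF (-0.25 ± 0.18, adjusted p = 0.31). At 6 h of BDNF it was at 88.3 and 91.5, below every control (-0.78 ± 0.18, adjusted p = 0.0020). At 10 h the libraries were at 138 and 98.4 with BDNF (-0.41 ± 0.18, adjusted p = 0.088) and 235 and 192 with KCl (0.45 ± 0.18, adjusted p = 0.045), and 1 library of each overlapped the controls. The opposite calls at 10 h were each lost when the library farthest from the controls was left out (-0.17 and adjusted p = 0.670 for BDNF, 0.30 and 0.343 for KCl), while the direct difference was -0.86 ± 0.22, adjusted p = 0.0043. Its call at 6 h of KCl, at 101 and 120.4 (-0.49), was lost without library A (-0.36, adjusted p = 0.207).

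**Figure D3:**
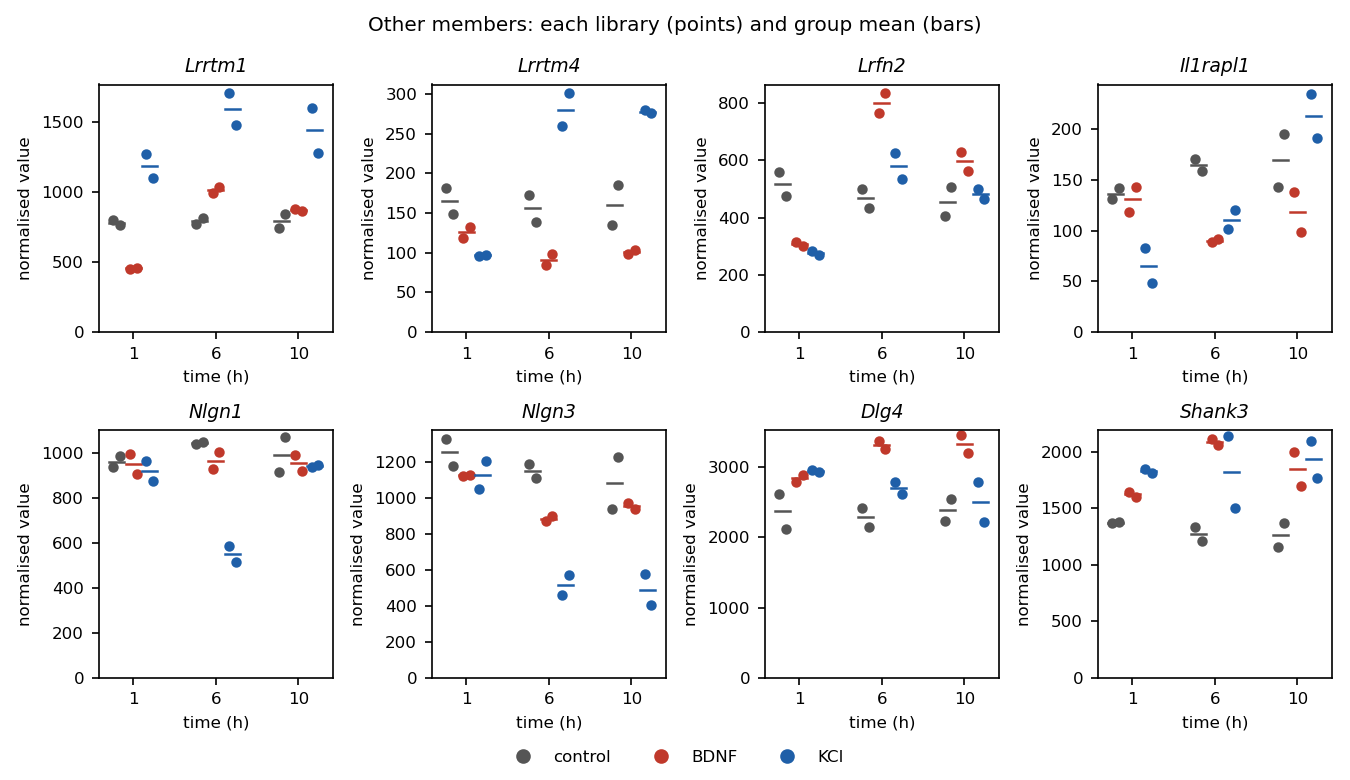
Normalised counts in every RNA library for Lrrtm1, Lrrtm4, Lrfn2, Il1rapl1, Nlgn1, Nlgn3, Dlg4 and Shank3, by treatment and time; each point is 1 library. Lrrtm4 at 6 and 10 h lies below the controls with BDNF and above them with KCl, and Nlgn1 is low at 6 h of KCl (588 and 514 normalised counts).

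Among the excitatory scaffolds, Dlg4 and Shank3 rose with BDNF at all 3 times. Dlg4, which encodes PSD-95, had controls at 2125, 2329 and 2613 and BDNF libraries of 1, 6 and 10 h at 2789 and 2890.3, 3366 and 3249.8, and 3454 and 3203, all above every control (0.50 ± 0.08, adjusted p = 6.0e-05 and 0.51 ± 0.08, adjusted p = 7.1e-05 at 6 and 10 h). Shank3, a gene of Phelan-McDermid syndrome, had controls at 1154, 1349.9 and 1373 and BDNF libraries at 1642 and 1602, 2111 and 2054 and 1997 and 1699.8, again with no overlap (0.68 ± 0.10, adjusted p = 3.3e-05 and 0.50 ± 0.10, adjusted p = 0.00092 at 6 and 10 h). Their 1 h calls were smaller (0.28 and 0.32), and each was lost without 1 BDNF 1 h library (0.25 and adjusted p = 0.118 for Dlg4 without B, 0.30 and 0.158 for Shank3 without A). With KCl, Shank3 was also higher at 1, 6 and 10 h (0.49, 0.46 and 0.57), and its direct differences from BDNF were not called. Leaving out KCl 6 h library A or B gave 0.21 or 0.72 for its 6 h value. Dlg4 was higher at 1 and 6 h of KCl (0.33 and 0.21) but not called at 10 h (0.09 ± 0.08, adjusted p = 0.40), where BDNF exceeded KCl by 0.42 ± 0.10, adjusted p = 0.0023. The 6 h call was lost when KCl 6 h library A was left out (0.16, adjusted p = 0.207), and the 10 h difference was 0.26 without KCl 10 h library B.

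Other MAGUKs moved in other directions. Dlg1, which encodes SAP97 and binds AMPA receptors, was called in opposite directions at 6 and 10 h. From controls at 658, 704 and 730.3, it was at 522 and 513 and 619 and 579.7 with BDNF (-0.43 ± 0.08, adjusted p = 0.00010 and -0.22 ± 0.08, adjusted p = 0.026) and at 906 and 1101 and 851 and 899.6 with KCl (0.51 ± 0.08, adjusted p = 4.6e-06 and 0.32 ± 0.08, adjusted p = 0.0012). BDNF libraries lay below and KCl libraries above every control, and the direct differences were -0.95 ± 0.09, adjusted p = 2.8e-08 at 6 h and -0.55 ± 0.09, adjusted p = 7.1e-05 at 10 h. Its BDNF calls at 1 h (-0.20, libraries at 637 and 584) and 10 h were lost without library B of that time (-0.14 and -0.18). Dlg3, an X-linked scaffold that encodes SAP102, was called in opposite directions at 1 h. It was at 1128 and 1137 with BDNF (-0.18 ± 0.07, adjusted p = 0.041) and 1535 and 1431 with KCl (0.21 ± 0.07, adjusted p = 0.014), from controls at 1199, 1289 and 1376, on either side of the controls without overlap. The direct difference was -0.39 ± 0.08, adjusted p = 0.00073, and both calls against controls were lost when a library of the group was left out (adjusted p = 0.214 and 0.159 for BDNF and 0.176 for KCl). Dlg3 was also lower at 6 and 10 h of KCl (-0.22 and -0.18), and both calls were lost when library B of that time was left out (-0.13 and -0.16, adjusted p = 0.200 and 0.177). Dlg2, which encodes PSD-93, had controls at 1249, 1354 and 1531 and was lower at 6 h of BDNF at 1064 and 1049 (-0.38 ± 0.08, adjusted p = 0.00091). With KCl it was called higher at 1 h (0.26) and lower at 6 h (-0.19), both lost without 1 KCl library.

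Shank2 was called in opposite directions at 1 h, from controls at 1214, 1374 and 1489 to 999 and 1094 with BDNF (-0.37 ± 0.09, adjusted p = 0.0023) and 1623 and 1668 with KCl (0.28 ± 0.09, adjusted p = 0.013), with no overlap. Both these calls held in each of the 18 fits that left out 1 library, and the direct difference was -0.65 ± 0.11, adjusted p = 5.8e-05. It stayed low with BDNF at 6 h at 945 and 922 (-0.54 ± 0.09, adjusted p = 6.4e-05) and at 10 h at 1165 and 977 (-0.34 ± 0.09, adjusted p = 0.0052), the latter lost without library B (-0.22, adjusted p = 0.206). Shank1 had controls at 2005, 2209 and 2378 and was lower at 6 h of KCl (-0.39), a call lost without library B (-0.15, adjusted p = 0.328). Of the SAPAPs, the low-level Dlgap2 rose at 6 h of KCl to 287 and 198 from controls at 114, 137 and 163 (0.81 ± 0.15, adjusted p = 0.00010). Dlgap3, tied to compulsive grooming in mice, had controls at 1249.6, 1344 and 1425 and rose with KCl at 1, 6 and 10 h (0.30, 0.42 and 0.51), the first call lost without KCl 1 h library B and the second without KCl 6 h library A. When KCl 6 h library B was left out instead, the 6 h value was 0.68. Dlgap3 was also called higher at 1 h of BDNF (0.27, adjusted p = 0.047), a call lost without library A (0.25) and without library B (0.29) of that group. Dlgap1, from controls at 1398, 1505 and 1549, was higher at 1 h of KCl (0.32) and lower at 6 h (-0.17), and the latter was gone without library B (-0.00, adjusted p = 0.993). Dlgap4, with controls at 3544, 3725 and 4119, was called once against controls, by -0.13 at 1 h of KCl, and this was lost without either KCl library. Gephyrin rose with KCl at 6 h, to 956 and 763 from controls at 531, 589.6 and 631 (0.55 ± 0.08, adjusted p = 8.8e-06), and at 10 h of both stimuli (0.31 for BDNF and 0.51 for KCl).

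Nrxn2 and Nrxn3, neurexins that bind neuroligins and LRRTMs, had control means of 6301 ± 443 and 2153 ± 178 (SD, n = 6) and were called once each, higher at 1 h of KCl (0.30 ± 0.12, adjusted p = 0.058 and 0.25 ± 0.10, adjusted p = 0.044). Both calls were lost when either KCl 1 h library was left out. Cntnap2, a neurexin relative that clusters potassium channels along axons, fell with BDNF at 6 h to 894 and 922 and at 10 h to 954 and 819.6, below controls at 1125, 1215 and 1252 (-0.40 ± 0.07, adjusted p = 8.5e-05 and -0.44 ± 0.07, adjusted p = 4.2e-05). It was also called lower at 6 and 10 h of KCl (-0.16, adjusted p = 0.054 and -0.15, adjusted p = 0.068). Both KCl calls were lost without library B of that time (-0.10 and -0.09). The direct differences were -0.25, adjusted p = 0.017 and -0.29, adjusted p = 0.0093. The phosphatase Ptprd, a presynaptic receptor for SLITRKs and IL1RAPL1, fell at 6 and 10 h of BDNF to 2671 and 2534 and 3068 and 2734 from controls at 3405, 3790.2 and 3988 (-0.53 ± 0.06, adjusted p = 9.9e-07 and -0.38 ± 0.06, adjusted p = 0.00011). Ptprd was not called at 6 and 10 h of KCl (0.04 and 0.05), and the direct differences were -0.57 ± 0.08, adjusted p = 3.1e-06 and -0.43 ± 0.08, adjusted p = 0.00016. Ptprs and Ptprf, its relatives, were not called with BDNF and were higher at 1 h of KCl (0.30 ± 0.07, adjusted p = 0.0010 and 0.19 ± 0.08, adjusted p = 0.057), from controls at 12044, 12298 and 12679 and 3022, 3269 and 3579.7. The Ptprf call was lost when KCl 1 h library B was left out (0.05, adjusted p = 0.721).

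Set directly against KCl at the same time, BDNF left more of the 36 genes lower than higher. At 1 h 6 were higher and 14 lower with BDNF, where 24.6% of all genes were higher and 18.2% lower. At 6 h 6 were higher and 19 lower (29.6% and 27.8% of all genes), and at 10 h 4 and 17 (23.1% and 21.8%). At 6 h the largest differences were those of Lrrtm4 (-1.61) and Slitrk4 (-1.27), both lower with BDNF. Of the genes higher with BDNF at 6 h, Nlgn1 differed by 0.81 ± 0.09, adjusted p = 2.8e-07, Nlgn3 by 0.79 and Shank1 by 0.53, the last lost when KCl 6 h library B was left out (0.30, adjusted p = 0.105). Of the calls, 11, 17 and 16 at 1, 6 and 10 h held in each of the 18 fits that left out 1 library.

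Changes over time under 1 stimulus were tested in the same model. From 1 to 6 h of BDNF, 20 members changed, 10 higher and 10 lower, against 33.6% of all genes in both directions. Lrfn2 (1.38), Lrrtm1 (1.15), Slitrk4 (1.09) and Slitrk1 (0.98) had the largest rises on the log2 scale, and Il1rapl1 (-0.53) and Ptprd (-0.47) the largest falls. From 6 to 10 h of BDNF, limma called 0 members and 0.216% of all genes, with 5 members at an unadjusted p below 0.05. From 1 to 6 h of KCl, 28 members changed, 17 higher and 11 lower, against 59.6% of all genes. Lrrtm4 (1.52), Lrfn3 (1.37) and Slitrk1 (1.22) rose most, and Nlgn3 (-1.13) and Nlgn1 (-0.74) fell most. From 6 to 10 h of KCl, 7 members changed, 6 higher and 1 lower, against 22.5% of all genes: Il1rapl1 (0.94), Nlgn1 (0.77), Slitrk3 (0.41), Slitrk2 (0.34), Dlgap1 (0.27) and Lrfn5 (0.26) rose and Lrrtm2 (-0.46) fell.

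The members differ in genomic length, and the classes used here were set after their values were seen. Of the 11 members that span under 20 kb, 9 were higher and 0 lower at 6 h of KCl and 10 and 0 at 10 h, where 37.0% and 31.3% of all genes of that length were higher and 28.7% and 23.9% lower. At 1 h of BDNF, 2 of the 11 were higher and 5 lower, against 22.6% and 17.2%. All 5 SLITRK genes are among these 11, so this class repeats values given above by family. Of the 13 members that span over 200 kb, among them Dlg2, Ptprd and Cntnap2, 0 were higher and 7 lower at 6 h of BDNF, where 19.3% of all genes of that length were higher and 39.8% lower. At 1 and 10 h of BDNF, 0 and 1 were higher (5.79% and 17.8% of all) and 3 and 6 lower (17.0% and 39.9%). With KCl at 1, 6 and 10 h, 6, 5 and 6 were higher and 2, 5 and 1 lower. Of all genes of that length, KCl raised 34.7%, 29.6% and 33.6% and lowered 13.4%, 40.6% and 30.6%.

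Of 66 other synapse organisers, all of them tested, more were higher than lower in each comparison with controls. BDNF raised 18, 23 and 23 and lowered 9, 15 and 13 at 1, 6 and 10 h, and KCl raised 24, 27 and 36 and lowered 7, 14 and 9. As shares of the 66, BDNF raised 27.3%, 34.8% and 34.8% and lowered 13.6%, 22.7% and 19.7%, and KCl raised 36.4%, 40.9% and 54.5% and lowered 10.6%, 21.2% and 13.6%, beside the shares of all genes given above. Set directly against KCl, BDNF left 16 of them higher and 21 lower after 1 h, 19 and 21 after 6 h, and 13 and 24 after 10 h. Homer1, a scaffold that links SHANKs to metabotropic glutamate receptors, stood at 11003 and 11135 normalised counts after 1 h of BDNF, with controls at 843, 883 and 962 (3.62 ± 0.08, adjusted p = 2.6e-19), and at 5433 and 4155 after 1 h of KCl (2.40). These counts are per gene and do not tell which transcript forms of Homer1 rose. Nptx1, a pentraxin that clusters AMPA receptors, was at 6396 and 6655 after 1 h of BDNF, with controls at 454, 581 and 633 (3.55 ± 0.10, adjusted p = 5.9e-16). C1ql2, a secreted ligand of synapses, was at 243 and 223 after 1 h of BDNF, with controls at 15.6, 20.7 and 25.6 (3.42 ± 0.22, adjusted p = 4.5e-11). It was at 52.6 and 67.5 after 10 h of KCl (1.47). Nptx2, another pentraxin, was at 1185 and 916 after 6 h of KCl, with controls at 176, 198 and 223 (2.39 ± 0.13, adjusted p = 4.9e-12). In each of these cases the stimulated libraries stood above every control. The largest falls with BDNF were Igsf9b at 10 h (-0.74), Ppfia2 at 6 h (-0.72) and Cadm2 at 6 h (-0.71). With KCl they were Cbln1 at 10 h (-0.94), Mdga1 at 10 h (-0.80) and Homer2 at 6 h (-0.74). Adjusted p in limma ran from 3.1e-09 for Cbln1 to 0.0099 for Igsf9b. Igsf9b was at 79.1 and 59.8, with controls at 76.5, 121 and 152, so 1 library overlapped the controls. The others lay below every control. Ppfia2 was at 737 and 676 (controls at 1027, 1146 and 1331) and Cadm2 at 1049 and 980 (1531, 1658 and 1792). Cbln1 was at 331 and 297 (542, 618 and 644), Mdga1 at 1616 and 1299 (2261, 2552 and 2727) and Homer2 at 512 and 429 (752, 784 and 829).

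Chromatin in and around the genes was read from ATAC peaks. Of 337 peaks assigned to the 36 genes, 329 passed the filter on low counts, among 56383 tested in all, and each gene had a tested peak and a promoter peak (within 1000 bases before to 100 after an annotated start). By class 258 were intronic, 63 at promoters and 8 exonic, and 231 lay in the 9 genes that span over 700 kb, so peaks are not spread evenly over the genes. Calls are at an adjusted p below 0.1 in edgeR's quasi-likelihood test, adjusted over all peaks tested.

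More peaks opened with BDNF than closed, most of them at 1 h. At 1 h 60 opened and 12 closed (18.2% and 3.65% of the 329), where 12.5% and 4.78% of all peaks did. At 6 h 36 opened and 5 closed (10.9% and 1.52%), against 8.88% and 1.75%, and at 10 h 25 and 4 (7.60% and 1.22%), against 7.46% and 1.9%. With KCl at 1 h 16 opened and 7 closed (4.86% and 2.13%), against 5.29% and 3.05%. At 6 h 19 and 6 did (5.78% and 1.82%), against 5.44% and 2.06%, and at 10 h again 19 and 6, against 5.91% and 1.96%. The peaks that opened at 1 h of BDNF lay in 17 of the 36 genes. Of these Dlgap2 had 11 of its 24 peaks opened and 0 closed, Dlg2 9 of 39 opened and 4 closed, Cntnap2 8 of 42 and 5, Ptprd 7 of 42 and 1, and Nlgn1 4 of 20 and 0. Directly compared at 1 h, 45 peaks were more open with BDNF and 15 with KCl, against 9.3% and 5.55% of all peaks. At 6 h 9 and 1 differed (2.25% and 1.37% of all peaks) and at 10 h 6 and 6 (1.16% and 0.83%).

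**Figure D4:**
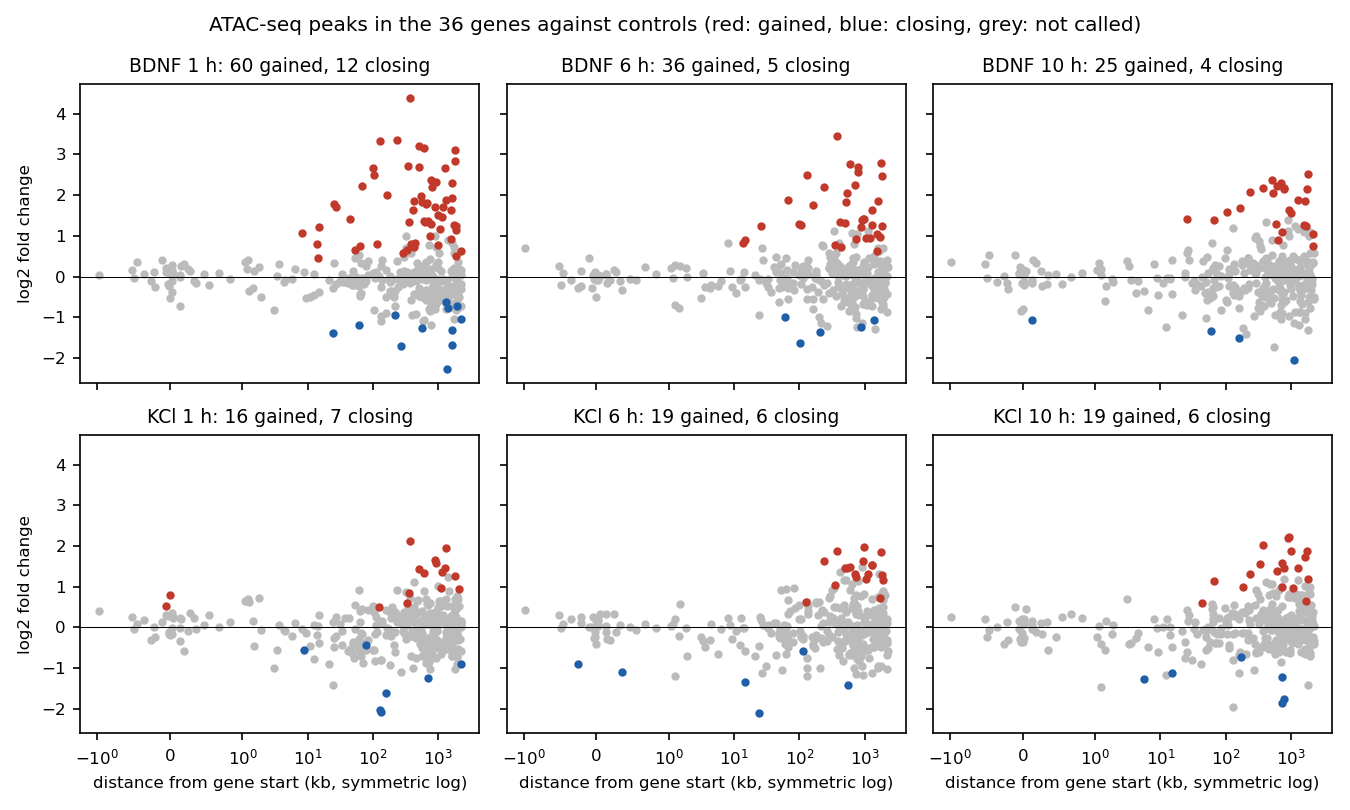
Log2 fold change of each tested peak in the 36 genes against its distance from the gene start (kb), 1 panel for each stimulus and time; coloured points have an adjusted p below 0.1 in edgeR. Opened peaks are most numerous at 1 h of BDNF (60, of which 6 at promoters).

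The sequences of 3 intronic peaks are shown, those with the largest change among the member peaks called at 10 h of BDNF (Ptprd) and at 10 h (Cntnap2) and 6 h (Nrxn3) of KCl. They are plus-strand sequence of GRCm38.p6 from RefSeq, the same build as the mm10 of the peak files, trimmed to the central 300 bases where the peak is longer. Capitals mark a match to the AP-1 motif TGANTCA on either strand, the sequence that Fos and Jun proteins bind.
Ptprd intron, chr4:76385874-76386173: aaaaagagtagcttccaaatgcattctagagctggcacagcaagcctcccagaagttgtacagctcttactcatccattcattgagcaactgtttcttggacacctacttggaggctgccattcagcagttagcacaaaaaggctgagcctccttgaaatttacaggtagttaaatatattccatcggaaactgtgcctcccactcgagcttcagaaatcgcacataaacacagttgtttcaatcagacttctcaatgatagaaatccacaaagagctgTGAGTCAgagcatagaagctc
Cntnap2 intron, chr6:45989302-45989601: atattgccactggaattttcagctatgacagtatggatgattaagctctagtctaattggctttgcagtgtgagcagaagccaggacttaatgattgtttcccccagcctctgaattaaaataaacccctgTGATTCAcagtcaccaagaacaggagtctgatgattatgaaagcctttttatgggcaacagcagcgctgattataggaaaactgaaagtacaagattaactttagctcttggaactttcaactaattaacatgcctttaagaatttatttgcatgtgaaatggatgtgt
Nrxn3 intron, chr12:88746908-88747040: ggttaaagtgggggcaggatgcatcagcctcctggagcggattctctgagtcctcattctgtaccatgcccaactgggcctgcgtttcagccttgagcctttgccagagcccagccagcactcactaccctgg

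The Ptprd peak (chr4:76385826-76386221, 1826 kb from the start) stood above the controls at all times of BDNF, with scaled ATAC counts of 4.71, 7.60 and 18.2 in the lowest, median and highest control. It was at 63.6 and 66.9 after 1 h, 53.6 and 47.4 after 6 h, and 43.7 and 60.6 after 10 h (2.53 ± 0.36 SE at 10 h, adjusted p = 1.1e-08). After 1 h of KCl it was at 11.1 and 17.4, inside the control range, and after 6 h at 23.0 and 20.5, above every control. After 10 h of KCl it was at 27.3 and 14.6, so 1 of the 2 libraries overlapped the controls. The Cntnap2 peak (chr6:45989294-45989608, 930.1 kb from the start) was at 31.5 and 31.5 after 10 h of KCl, with controls at 1.97, 7.23 and 10.3 (2.22 ± 0.41, adjusted p = 4.8e-05). After 1 and 6 h of KCl it was at 16.4 and 23.2 and at 24.1 and 15.2, and after 1, 6 and 10 h of BDNF at 35.3 and 32.2, 14.4 and 21.1, and 22.1 and 20.1. All 12 stimulated libraries stood above every control. The Ptprd and Cntnap2 sequences each hold 1 AP-1 match. The Nrxn3 peak (chr12:88746908-88747040, 24.1 kb from the start) was lower at 6 h of KCl, at 2.13 and 8.04 against 11.3, 13.2 and 25.6 (-2.11 ± 0.69, adjusted p = 0.052). That call was lost without library A (-0.99, adjusted p = 0.675) and with either other scaling (adjusted p = 0.123 and 0.107). The Nrxn3 sequence holds no match to the AP-1 letters.

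**Figure D5:**
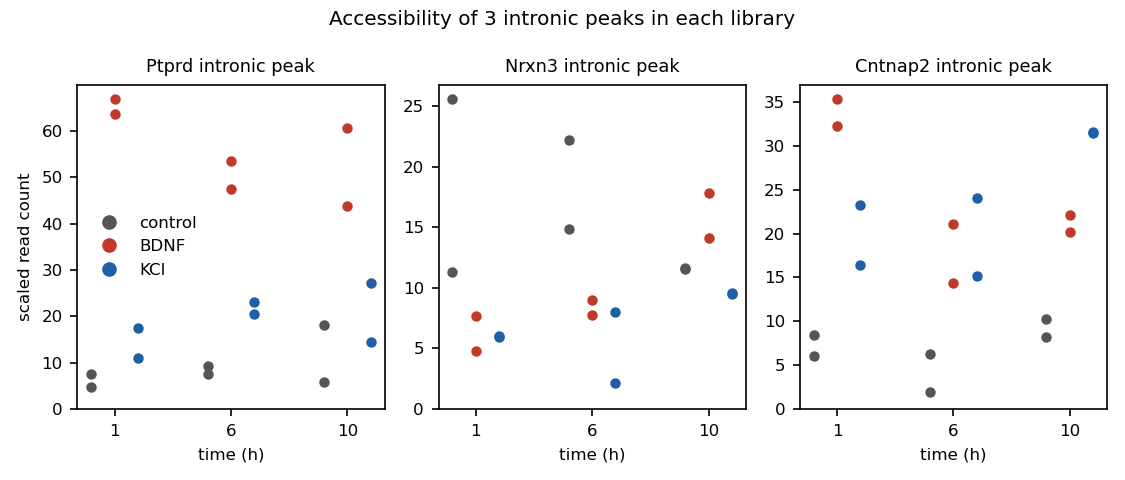
Scaled ATAC counts in every library for the 3 intronic peaks whose sequences are given, by treatment and time; each point is 1 library. The Ptprd peak is high at all times of BDNF, and the Cntnap2 peak reaches 31.5 in both libraries at 10 h of KCl.

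Within 300-base windows, the AP-1 letters were found in 16.7% of the members' tested peaks and 16.3% of all tested peaks. Of the peaks opened at 1 h of BDNF, 35 of 60 in the members held them (58.3%), and 67.2% of all opened peaks. At 6 and 10 h of BDNF the members' shares were 24 of 36 (66.7%) and 18 of 25 (72.0%), against 76.1% and 74.7%. With KCl they were 8 of 16 (50.0%), 14 of 19 (73.7%) and 13 of 19 (68.4%) at 1, 6 and 10 h, against 41.1%, 61.4% and 64.1% of all opened peaks. The letters TGACGTCA, bound by CREB, were in 1.82% of the members' peaks and 0.999% of all, GCGNGGGCG, bound by EGR proteins, in 2.74% and 3.87%, and the E-box CACGTG in 2.74% and 4.97%. RefSeq promoter sequences (250 bases before to 50 after a start) were matched for 26 of the 36 genes, with 42 entries, as a gene can have several starts. The AP-1 letters were in 1 of the 42 (2.38%, Nrxn3), against 7.81% of all 32851 entries. TGACGTCA was in 2 (4.76%, Ptprs and Slitrk2), against 1.79%, GCGNGGGCG in 4 (9.52%, Dlgap4, Gphn, Ptprf and Shank3), against 5.55%, and CACGTG in 5 (11.9%, of Dlg1, Dlgap1, Lrfn4 and Ptprs), against 7.15%.

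Of the 63 promoter peaks, 6 opened and 1 closed at 1 h of BDNF, 2 and 0 at 6 h and 0 and 1 at 10 h, with 3 and 1, 0 and 3, and 0 and 1 at 1, 6 and 10 h of KCl. With BDNF these shares are 9.52% opened and 1.59% closed at the first time, 3.17% and 0.0% at the second, and 0.0% and 1.59% at the last, against 4.06% and 2.77%, 1.52% and 0.859%, and 1.79% and 1.67% of the 13729 tested peaks at promoters of any protein-coding gene. With KCl they are 4.76% and 1.59%, 0.0% and 4.76%, and 0.0% and 1.59%, against 5.39% and 3.75%, 2.35% and 3.1%, and 1.8% and 3.02%. At 1 h of BDNF the promoter peak of a Dlg2 start 1196 kb into the gene (chr7:91672303-91672610) was at 46.9 and 66.8, above controls at 13.0, 16.8 and 23.2 (1.71 ± 0.31, adjusted p = 3.0e-06). A Shank2 start 416 kb into the gene (chr7:144417441-144418234) was at 141 and 145, above controls at 71.8, 84.9 and 112 (0.72 ± 0.16, adjusted p = 0.00027). A Ptprs start 14.1 kb into the gene (chr17:56461826-56462940) was at 592 and 633, above controls at 398, 448 and 493 (0.45 ± 0.09, adjusted p = 2.8e-05). At 1 h of KCl a Nrxn3 start 1089 kb into the gene (chr12:89811747-89812616) was at 124 and 134, above controls at 56.5, 67.8 and 80.0 (0.96 ± 0.18, adjusted p = 0.00026). These 4 calls held in each fit that left out 1 library, and all 4 are at starts inside the gene.

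Each of the other promoter calls was lost in at least 1 such fit. Many of these are also at starts inside the gene. The Nlgn3, Nrxn2 and Dlgap2 peaks lay 14.9, 8.10 and 286 kb into the gene. The Cntnap2, Dlgap1 and Shank2 peaks lay 2185, 553 and 174 kb into it. Those of Ptprf, Lrrtm2, Lrrtm3, Slitrk4 and Il1rapl1 lay at the gene start. The Nlgn3 peak was at 36.6 and 50.2 after 1 h (1.21) and 40.6 and 30.2 after 6 h of BDNF (0.89), above controls at 12.4, 16.01 and 28.6. At 1 h of BDNF a Nrxn2 peak was at 34.6 and 34.5, above controls at 10.8, 14.6 and 25.4 (1.07), and a Dlgap2 peak at 68.0 and 94.6, above 47.5, 56.7 and 59.0 (0.59). The Dlg2 peak named above was at 35.98 and 31.5 after 6 h of BDNF (0.95), and stood above every control there too. A Cntnap2 peak was lower at 1 h of both stimuli, with BDNF libraries at 21.2 and 16.4 (-1.04) and KCl libraries at 18.6 and 22.0 (-0.91), against controls at 31.1, 36.6 and 47.8. A Ptprf peak was at 16.3 and 14.6 after 10 h of BDNF, below 25.7, 32.9 and 39.2 (-1.07). After 1 h of KCl, Lrrtm2 was at 99.8 and 70.8, above 25.0, 47.0 and 67.5 (0.80), and Lrrtm3 at 112 and 109, above 71.2, 72.9 and 89.1 (0.52). Peaks of 3 genes were lower at 6 h of KCl. Dlgap1 was at 9.12 and 15.3, below 24.9, 29.7 and 35.6 (-1.42), Slitrk4 at 22.5 and 10.4, below 29.1, 40.8 and 49.3 (-1.09), and Il1rapl1 at 26.8 and 37.0, below 44.3, 54.6 and 72.4 (-0.90). After 10 h of KCl a Shank2 peak was at 43.4 and 40.7, below 58.7, 65.4 and 93.7 (-0.72). In each of these cases no library of the group overlapped the controls. The adjusted p-values of these ran from 0.0047 for Nlgn3 at 1 h of BDNF to 0.097 for Nlgn3 at 6 h. The promoter peaks of the SLITRK genes, whose RNA fell at 1 h of BDNF, were not called there, with log2 fold changes of 0.26 for Slitrk1, 0.14 for Slitrk3, 0.06 for Slitrk5, and 0.19 and -0.16 for 2 peaks of Slitrk4.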

How the data were processed

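RNA-seq and ATAC-seq libraries of silenced cortical neurons were grouped by the treatment and time in the labels, 2 for each of 9 groups. Per the submitters' processing notes and the study's methods, the authors trimmed reads with Trimmomatic and aligned them to mm10, with TopHat2 for RNA and Bowtie2 for ATAC, called peaks in each sample with MACS2 and counted reads in consensus peaks with DiffBind. The deposited RNA values are signal: gene counts that the authors divided by a size factor for each library. Whole reads were recovered from their steps for 100% of values (within 0.01), which gave depths of 8508452 to 36699187 reads (median 11558674). The deposited ATAC values are counts of reads per peak, 1241829 to 6236439 per library (median 3553183). The authors' tables of genes and peaks hold their own comparisons (log2 fold changes, standard errors, test statistics, p-values and, as a score, the mean over samples). These values were not used, and the gene IDs and names alone were read there.

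In R 4.3.3, log2(normalised count + 1) was fitted with limma 3.58.1 (trended, robust) for the 16209 genes with a mean of at least 10, in 7 levels with the 6 controls pooled, and fold changes are on that scale, which understates the change of low genes. ATAC counts were fitted with edgeR 4.0.16 (robust quasi-likelihood, LOESS offsets) for the 56383 peaks with a mean of at least 10. P-values were Benjamini-Hochberg adjusted over all genes or peaks, and a call is an adjusted p below 0.1. Both fits were tested on simulated data with changes of at least 2-fold and a fixed spread for all features. Most RNA changes called in the members were smaller, and the simulation does not cover them. On the recovered reads, edgeR's count test called 6481 to 10794 of the genes in the 9 comparisons with controls or between stimuli, and limma 6546 to 10779. DESeq2 on the same reads called fewer than limma in each of the 9, from 5785 to 10187.

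Library letters A and B come from the column names of the RNA table, not from the labels, and for ATAC from table order only. Peaks were assigned to genes, and promoters (1000 bases before to 100 after a start) defined, with GENCODE M21 (mm10). Sequences are RefSeq GRCm38.p6. The members and lists were chosen with earlier results of these data known. Named with values in every library were the 3 largest called changes in each comparison with controls, every member called in opposite directions by the stimuli at 1 time, the 2 largest direct differences, the most changed called peak of each comparison, except 3 that are not reported here (those at 1 h of both stimuli and at 6 h of BDNF), and every called promoter peak; of the other organisers, the 3 largest rises and falls per stimulus. Slitrk5 at 10 h also falls under that rule, and only its fold changes are given. Genes not covered by the rule were chosen after their values were seen. Alternatives were edgeR or DESeq2 1.42.0 on recovered reads, TMM or DESeq2 scaling, other pseudocounts (0.5 and 5), no filter, controls of the same time, an adjusted p below 0.01, a replicate block and leaving out each library.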

Additional observations from a re-analysis of the deposited data

Results flagged for a closer look

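Within the 6 controls, Slitrk3 stood out at 808.6 normalised counts in control 6 h library A, with the other controls between 721 and 752. A gap of this relative size appears by chance in about 1 of 20 groups, and all 36 genes were examined.

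The level under 1 stimulus differed between times for 20 members from 1 to 6 h of BDNF, 28 from 1 to 6 h of KCl and 7 from 6 to 10 h of KCl, each by limma's test of the difference between the times. Some of these genes were called in opposite directions at the 2 times against the controls. With BDNF, Lrrtm1 and Lrfn2 were lower at 1 h and higher at 6 h, and changed by 1.15 and 1.38 on the log2 scale between them. With KCl, Lrrtm4 (1.52), Lrfn3 (1.37), Slitrk1 (1.22), Slitrk5 (1.08) and Lrfn2 (1.07) were lower at 1 h and higher at 6 h. Dlgap1 (-0.49), Dlg2 (-0.45) and Dlg3 (-0.42) went the other way between those times, and their 6 h calls were lost when KCl 6 h library B was left out (-0.00 and adjusted p = 0.993 for Dlgap1, -0.13 and 0.320 for Dlg2, -0.13 and 0.200 for Dlg3). Il1rapl1 was lower at 6 h and higher at 10 h of KCl, a change of 0.94. The KCl calls of Lrfn2 at 6 h and of Il1rapl1 at 6 and at 10 h were each lost when library A of that time was left out.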

How the results depend on the processing

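Of 186 member calls in the 9 RNA comparisons, 118 held under every alternative run and none changed sign. An adjusted p below 0.01 lost 57 calls, controls of the same time 29, no filter on low values 6, DESeq2 on reads 3, edgeR on reads 2 and TMM scaling 1; the other pseudocounts lost 0. With controls of the same time, members called fell from 16 to 10 at 1 h and from 15 to 9 at 10 h of BDNF. With an adjusted p below 0.01 they were 9 and 8 there, 14 (from 26) at 1 h of KCl and 10 (from 20) for BDNF against KCl at 1 h. Leaving out each library gave 11 to 18, 13 to 17 and 8 to 16 calls at 1, 6 and 10 h of BDNF, 18 to 27, 24 to 28 and 19 to 22 for KCl, and 13 to 20, 23 to 26 and 17 to 23 between the stimuli. The 8 came without BDNF 10 h library B and the 13 without KCl 1 h library B.

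Peak counts moved more. Leaving out each library gave 49 to 73, 23 to 43 and 15 to 34 called peaks at 1, 6 and 10 h of BDNF (72, 41 and 29 with all), and 6 to 26, 9 to 29 and 10 to 27 for KCl (23, 25 and 25). The lowest of each came without a library of the group itself. With controls of the same time they were 15 at 10 h of BDNF and 10, 13 and 10 with KCl, and with an adjusted p below 0.01, 21 and 15 at 6 and 10 h of BDNF and 3, 6 and 6 with KCl. TMM scaling gave 42 at 10 h of KCl, DESeq2 size factors 38 and 48 at 6 and 10 h, and limma on log2 values 15 at 1 h of KCl. With limma, 26 opened and 12 closed at 10 h of BDNF (25 and 4 in edgeR), 20 and 16 at 6 h of KCl and 12 and 7 at 10 h (19 and 6 at both). The depth of the ATAC libraries limits what the smaller peaks can show. The causes of these moves were not tested.

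With the RNA library letter as a replicate block, 17, 17 and 16 members were called for BDNF, 26, 27 and 21 for KCl and 20, 25 and 22 between the stimuli, against 16, 15 and 15, 26, 27 and 21, and 20, 25 and 21. Deviations of same-letter libraries correlated between -0.31 and 0.42 over 36 pairs of groups (median 0.06), with 13 above 0.1, so the letters are not taken to pair the samples. For the ATAC peaks alone, no paired analysis was possible because the ATAC columns carry no replicate numbers.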
